A study of Mus musculus with 42 samples.

Results

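Cyp4a10, Cyp4a14 and Cyp4a31 encode cytochrome P450 enzymes of the mouse Cyp4a family, which hydroxylate fatty acids at the omega end. The 3 genes were followed in the livers of mice fed a high-fat diet (HFD) for 7, 14 or 21 days. The family was picked with earlier results of these data known, so its ranks among all genes are descriptions. The 3 genes were taken by symbol, and each was read from the brightest probe set annotated with its symbol alone. Each had exactly 1 such probe set, so the 3 genes stand for 3 of the 19559 single-symbol probe sets and 3 of the 17989 genes measured. A further probe set annotated with Cyp4a10, Cyp4a31 and Cyp4a32 together is given beside them. All 3 transcripts were far higher in every HFD group than in controls, Cyp4a14 most of all genes measured at each time.

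Omega-hydroxylation is the opening step of omega-oxidation, a minor route of fatty acid breakdown that begins in the endoplasmic reticulum. The hydroxylated acid is oxidised by alcohol and aldehyde dehydrogenases to a dicarboxylic acid, which peroxisomes then shorten by beta-oxidation. In rodent liver the Cyp4a genes are classic targets of PPAR-alpha, a nuclear receptor that fatty acids activate, and Cyp4a10 and Cyp4a14 are widely used as readouts of its activity.

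The arrays came from livers of male wild-type C3HeB/FeJ mice, housed singly and sampled in the random-fed state. The tested groups were HFD for 7 days at 15 weeks of age, for 14 days at 16 weeks and for 21 days at 17 weeks, with 8 arrays each, against 18 control arrays of mice kept on a low-fat diet for up to 21 days and aged 15 to 17 weeks. Age therefore moved with time on HFD, and the 3 comparisons share the same 18 controls. The array titles of the control and 21-day groups carry the word reanalysis and those of the 7-day and 14-day groups do not. A processing batch that followed this word cannot be told apart from diet at 7 and 14 days. Nor can it be told apart from time on HFD between the 21-day group and the earlier HFD groups. The labels do not tie arrays to animals, so p-values measure only the spread between these samples, which may be technical.

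The RNA had the makeup of liver on every array. The mean of 8 hepatocyte markers, albumin (Alb) among them, lay between 11.7 and 12.4 on the log2 scale across all arrays. Kidney, the other organ with strong Cyp4a expression, was read from 9 tubule markers, whose mean lay between 2.73 and 3.05. Of these, 5 averaged below 2.86, the 95th percentile of 929 olfactory receptor genes that is used here as a background level. Pancreatic acinar RNA varied from array to array: the mean of 18 acinar markers spanned 3.44 to 9.06 at 7 days, 3.40 to 8.88 at 14 days and 3.29 to 6.09 at 21 days, against 3.34 to 7.96 in controls. Of the acinar markers 0 passed the limma test at any time, with 0 at an unadjusted p under 0.05, and with their mean as a covariate the changes of the 3 Cyp4a genes lay between 2.16 and 3.66. The mean of 11 Kupffer cell and macrophage markers averaged 5.65 at 7 days, 5.48 at 14 days and 5.44 at 21 days, against 5.34 in controls; its lowest 7-day array stood at 5.51 and its highest control at 5.66. Of these markers 3 of 11 passed as higher at 7 days (Vsig4, C1qc and Cd68) and 0 at 14 and 21 days by limma. The share of all genes that passed as higher at 7 days was 1.16%. At an unadjusted p under 0.05 there were 7, 3 and 0 of these markers. At 7 days 10 of the 11 changes were positive, with a median log2 change of 0.29. The 7-day calls were lost in 3 to 7 settings each, that of Vsig4 also without 7-day array 5 or 7 (adjusted p up to 0.136) and that of C1qc without 7-day array 4, 5, 6 or 7 (adjusted p up to 0.0965). Their part in the 7-day Cyp4a values was not tested.

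In the RefSeq gene order of chromosome 4 (assembly GRCm38.p6), Cyp4a14, Cyp4a10 and Cyp4a31 lie next to each other, and Cyp4a32 follows them. The RefSeq promoter table used here matched Cyp4a32, which is 1 of the 3 genes named on the shared probe set. Its promoter at chr4:115600688-115600987 on the plus strand is shown as the nearest sequence at hand to the control region of the group. Capitals mark the 50 bases from the annotated transcript start onward.
Cyp4a32: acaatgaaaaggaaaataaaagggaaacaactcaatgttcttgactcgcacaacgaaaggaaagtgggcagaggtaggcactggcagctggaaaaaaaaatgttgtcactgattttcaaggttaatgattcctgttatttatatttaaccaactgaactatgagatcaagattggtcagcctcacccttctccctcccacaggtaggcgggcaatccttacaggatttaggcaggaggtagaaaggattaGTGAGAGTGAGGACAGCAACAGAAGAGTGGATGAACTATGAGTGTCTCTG
The idealised PPAR response element, a direct repeat spelled AGGTCANAGGTCA, was searched on both strands of all promoter windows. It was found in 13 of 32851 windows, or 0.0396%, and its half-site AGGTCA, which every such repeat also contains, in 5340 windows, or 16.3%. Neither string occurred in the 300 bases printed above. Since the exact repeat is so rare over all windows, its absence from 1 window carries little information. Promoters of Cyp4a10, Cyp4a14 and Cyp4a31 were not at hand and were not searched.

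Cyp4a14, an omega-hydroxylase of medium-chain fatty acids that is low in the untreated male liver, changed most. Its lowest, median and highest log2 values were 5.30, 6.97 and 7.44 at 7 days, 4.10, 6.28 and 7.26 at 14 days and 5.36, 6.84 and 7.30 at 21 days of HFD. In controls they were 2.61, 2.98 and 3.73. Every HFD array lay above every control array, and 6 of the 18 controls lay below the olfactory receptor level, so the control signal was at the edge of detection. In a limma fit of all 42 arrays, Cyp4a14 rose 12.4-fold at 7 days (95% limits 8.65 to 17.9, adjusted p = 6.22e-14). The rise was 8.02-fold at 14 days (5.57 to 11.5, adjusted p = 4.59e-11) and 11.6-fold at 21 days (8.05 to 16.7, adjusted p = 2.59e-13). Among 17989 genes it ranked 1 by size of rise at each of the 3 times. In whole liver, more RNA per cell cannot be told apart from more cells that carry it.

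Cyp4a10, which hydroxylates lauric acid and related fatty acids, had lowest, median and highest log2 values of 6.48, 6.92 and 7.35 at 7 days, 5.42, 6.43 and 7.76 at 14 days and 5.88, 6.68 and 6.97 at 21 days of HFD. In controls they were 3.78, 4.29 and 4.77. The HFD and control arrays did not overlap at any time, and all controls lay above the background level. By limma it rose 5.88-fold at 7 days (95% limits 4.65 to 7.43, adjusted p = 3.81e-15), 4.42-fold at 14 days (3.49 to 5.58, adjusted p = 2.11e-12) and 4.75-fold at 21 days (3.76 to 6.01, adjusted p = 2.59e-13). It ranked 6 among all genes by size of rise at each time.

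Cyp4a31 is a close relative of Cyp4a10 and its neighbour on the chromosome. Its lowest, median and highest log2 values were 6.37, 6.94 and 7.48 at 7 days, 5.28, 6.25 and 7.60 at 14 days and 6.29, 6.59 and 7.08 at 21 days of HFD, against 2.95, 4.15 and 5.17 in controls. The lowest 14-day array stood only just above the highest control, and at 7 and 21 days the gap was over 1 log2 unit. By limma it rose 7.19-fold at 7 days (95% limits 5.31 to 9.74, adjusted p = 3.52e-13), 4.71-fold at 14 days (3.48 to 6.38, adjusted p = 9.26e-10) and 5.73-fold at 21 days (4.23 to 7.76, adjusted p = 2.90e-11). It ranked 4 by size of rise at 7 days and 5 at 14 and 21 days.

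The shared probe set of Cyp4a10, Cyp4a31 and Cyp4a32 moved the same way, which adds no separate gene since its transcripts are those of the neighbours. Its log2 values averaged 8.65 ± 0.24 at 7 days, 8.06 ± 0.55 at 14 days and 8.33 ± 0.37 at 21 days, against 6.06 ± 0.42 in controls (SD, n = 8, 8, 8 and 18). In a limma fit over 32623 probe sets it was 6.01-, 4.01- and 4.81-fold higher at 7, 14 and 21 days, with adjusted p of 2.42e-14, 6.71e-11 and 1.40e-12. Probe sets of such near-identical genes can also hybridise to each other's transcripts, so the values of Cyp4a10 and Cyp4a31 are uncertain in how they divide between the 2 genes.

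**Figure D1:**
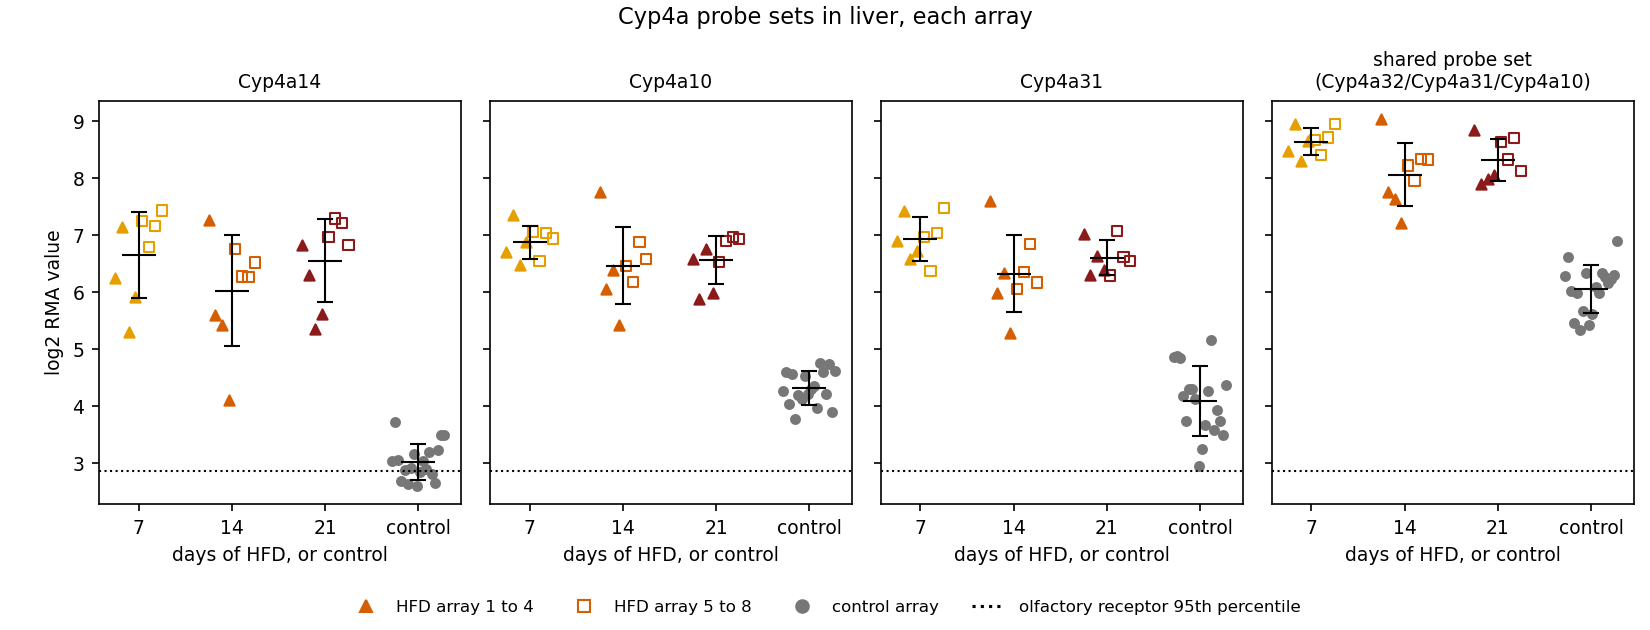
Log2 RMA value (vertical axis) of each array at 7, 14 and 21 days of HFD and in controls (horizontal axis), for Cyp4a14, Cyp4a10, Cyp4a31 and the shared probe set. Filled triangles are HFD arrays numbered 1 to 4, open squares HFD arrays numbered 5 to 8 and grey circles controls; bars are the mean ± SD, and the dotted line is the olfactory receptor 95th percentile of 2.86. In all 4 panels every HFD array lies above every control.

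All 3 genes thus passed as higher at all 3 times. Over all genes, 1.16% passed as higher at 7 days, 0.506% at 14 days and 0.445% at 21 days (adjusted p under 0.05), and 0.239%, 0.161% and 0.256% as lower. In either direction these were 1.4%, 0.667% and 0.7% of genes. The 8 of 8 HFD arrays above all controls, which each of the 3 genes showed at each time, were a property of 0.228% of genes at 7 days, 0.0778% at 14 days and 0.05% at 21 days. The median log2 change of all genes was -0.01, -0.00 and 0.01. Each of the 9 changes kept its direction and its call in all 14 other settings tried and with any single array left out, 360 refitted values in all.

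For all 3 genes the group means were ordered 7 days, 21 days, 14 days and control, from high to low. Cyp4a14 averaged 6.66 ± 0.76, 6.03 ± 0.98 and 6.56 ± 0.73 at 7, 14 and 21 days, and 3.02 ± 0.32 in controls. Cyp4a10 averaged 6.88 ± 0.29, 6.47 ± 0.68 and 6.57 ± 0.42, and 4.32 ± 0.30 in controls. Cyp4a31 averaged 6.94 ± 0.39, 6.33 ± 0.68 and 6.61 ± 0.30, and 4.09 ± 0.61 in controls (SD, n = 8 at each time and 18 controls). Only the step between the HFD groups and the controls exceeded the spread between arrays after adjustment.

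Between 14 and 7 days of HFD the log2 difference was -0.63 for Cyp4a14, -0.41 for Cyp4a10 and -0.61 for Cyp4a31. The unadjusted limma p were 0.0445, 0.0417 and 0.0211 and the adjusted p 0.9998 for each, so none was called. The 95% limits of the ratio of 14 to 7 days were 0.420 to 0.989 for Cyp4a14, 0.570 to 0.989 for Cyp4a10 and 0.458 to 0.936 for Cyp4a31. For Cyp4a14 these limits span a loss by more than a factor of 2 and almost no loss. In this comparison limma called 0% of genes, and 451 genes had an unadjusted p under 0.05.

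Between 21 and 14 days the log2 differences were 0.53, 0.11 and 0.28 for Cyp4a14, Cyp4a10 and Cyp4a31, with an adjusted p of 0.999 for each by limma. Between 21 and 7 days they were -0.10, -0.31 and -0.33, with adjusted p of 0.951, 0.750 and 0.791. None of these was called, and a processing batch behind the word reanalysis would enter both comparisons. The 95% limits of the ratio of 21 to 7 days ran from 0.607 to 1.43 for Cyp4a14, from 0.614 to 1.06 for Cyp4a10 and from 0.557 to 1.14 for Cyp4a31. Limma called 0 genes for 21 against 14 days and 1 gene (0.00556%) for 21 against 7 days, with 715 and 1283 genes at an unadjusted p under 0.05.

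The Cyp4a14 probe set changed by a larger factor than the probe sets of Cyp4a10 and Cyp4a31 on the same arrays. Probe sets differ in background and cross-hybridisation, so these factors compare signals and not exact amounts of transcript. The log2 value of Cyp4a14 minus that of Cyp4a10 within an array was higher by 1.08 at 7 days, 0.86 at 14 days and 1.28 at 21 days than in controls. Its fold change was thus 2.12, 1.82 and 2.44 times that of Cyp4a10, by exact permutation over arrays with adjusted p of 0.000193, 0.000438 and 0.000144 over 9 such tests. The difference exceeded the control mean on 8, 7 and 7 of 8 HFD arrays.

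Against Cyp4a31 the excess of Cyp4a14 was 0.79, 0.77 and 1.02 on the log2 scale at 7, 14 and 21 days, a ratio of fold changes of 1.73, 1.70 and 2.02 (exact permutation, adjusted p = 0.00709, 0.00777 and 0.00154). It exceeded the control mean on 7 of 8 HFD arrays at each time. Cyp4a10 and Cyp4a31 differed in their change by -0.29, -0.09 and -0.27, which the exact permutation test did not separate from 0 (adjusted p = 0.266, 0.678 and 0.290). Since 6 controls had Cyp4a14 below the background level, the factor for Cyp4a14 rests on a control signal near the lower end of the array.

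The excess of Cyp4a14 was smaller on HFD arrays numbered 1 to 4 than on those numbered 5 to 8, a difference that was not itself tested. The mean log2 value of Cyp4a14 was 6.16 on arrays numbered 1 to 4 and 7.16 on arrays numbered 5 to 8 at 7 days, 5.60 and 6.46 at 14 days, and 6.03 and 7.08 at 21 days. With arrays 1 to 4 alone, the excess over Cyp4a31 was 0.32, 0.36 and 0.52 at 7, 14 and 21 days (exact permutation, adjusted p = 0.399, 0.367 and 0.220). The excess over Cyp4a10 on these arrays was 0.60, 0.49 and 1.03 at 7, 14 and 21 days, and passed at 7 and 21 days (exact permutation, adjusted p = 0.0480, 0.0800 and 0.0258). With arrays 5 to 8 alone, the excess was 1.26, 1.17 and 1.51 over Cyp4a31 and 1.56, 1.23 and 1.54 over Cyp4a10, and all 6 passed by exact permutation (highest adjusted p = 0.00205).

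Cyp4a10 and Cyp4a31 differed less than Cyp4a14 across the same split. Cyp4a10 averaged 6.86 and 6.90 on arrays 1 to 4 and 5 to 8 at 7 days, 6.40 and 6.53 at 14 days, and 6.31 and 6.84 at 21 days. Cyp4a31 averaged 6.91 and 6.97, 6.30 and 6.36, and 6.58 and 6.64. Malat1, a long noncoding RNA kept in the nucleus, split the HFD arrays without overlap in all 3 groups: it averaged 6.79 and 9.05 at 7 days, 6.19 and 8.96 at 14 days, and 6.97 and 9.39 at 21 days. The labels name no batch for these numbers, and the part of this split in the Cyp4a14 values was not tested. With Malat1 as a covariate the change of Cyp4a14 was 3.66, 3.09 and 3.50 on the log2 scale at 7, 14 and 21 days, and still called. Malat1 averaged 7.92, 7.58 and 8.18 in the HFD groups, against 8.02 in controls. The covariate could therefore move these changes only little, and the fit does not bear on the split.

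Within the 14-day group the 3 genes followed the same arrays at the extremes. The array numbered 1 was highest, with log2 values of 7.26 for Cyp4a14, 7.76 for Cyp4a10 and 7.60 for Cyp4a31. The array numbered 4 was lowest, with 4.10, 5.42 and 5.28. Over these 8 arrays Cyp4a10 and Cyp4a31 gave Pearson's r = 0.96 (exact permutation, adjusted p = 0.0155) and Spearman's rho = 0.79 (adjusted p = 0.138). Without the 2 arrays farthest from the median, r was 0.71. Of 12 such correlations, over 3 pairs of genes in 4 groups, this 1 passed by Pearson's r and 0 passed by Spearman's rho. It joins the 2 genes whose probe sets can hybridise to each other's transcripts, and the part of this in r was not tested.

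In controls, where all 3 genes were low, the same r was 0.28 for Cyp4a14 with Cyp4a10, 0.38 for Cyp4a14 with Cyp4a31 and 0.24 for Cyp4a10 with Cyp4a31 (18 arrays, permutation, adjusted p = 0.309, 0.190 and 0.351). Of 24 correlations of the 3 genes with the acinar marker mean or with Malat1 within groups, 0 passed. The smallest adjusted p was 0.162, for Malat1 with Cyp4a14 at 21 days (r = 0.84, rho = 0.76, exact permutation, 8 arrays).

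Over 42 arrays the 3 genes correlated with each other at Pearson's r of 0.96 for Cyp4a14 with Cyp4a10, 0.95 for Cyp4a10 with Cyp4a31 and 0.93 for Cyp4a14 with Cyp4a31. Leaving these 3 out of the ranking, the gene most like each of them across arrays was Vnn1, pantetheinase, an enzyme that breaks down pantetheine in coenzyme A turnover. The r with Vnn1 over the same arrays was 0.96 for Cyp4a14, 0.95 for Cyp4a10 and 0.92 for Cyp4a31. The HFD and control arrays form separate clusters in these values, so an r over all arrays mostly restates the diet difference, and it is given as a description. Vnn1 averaged 6.29 at 7 days, 6.23 at 14 days and 6.10 at 21 days, against 3.26 in controls. By limma it was 8.13-, 7.79- and 7.13-fold higher, with adjusted p of 6.17e-19, 1.38e-18 and 7.76e-18. Within the HFD groups r between Vnn1 and Cyp4a14 was 0.61, 0.77 and 0.94 at 7, 14 and 21 days, and it was 0.35 within controls. For Cyp4a10 it was 0.58, 0.67 and 0.46 in the HFD groups and -0.17 within controls. For Cyp4a31 it was 0.59, 0.57 and 0.24 in the HFD groups and 0.10 within controls.

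**Figure D2:**
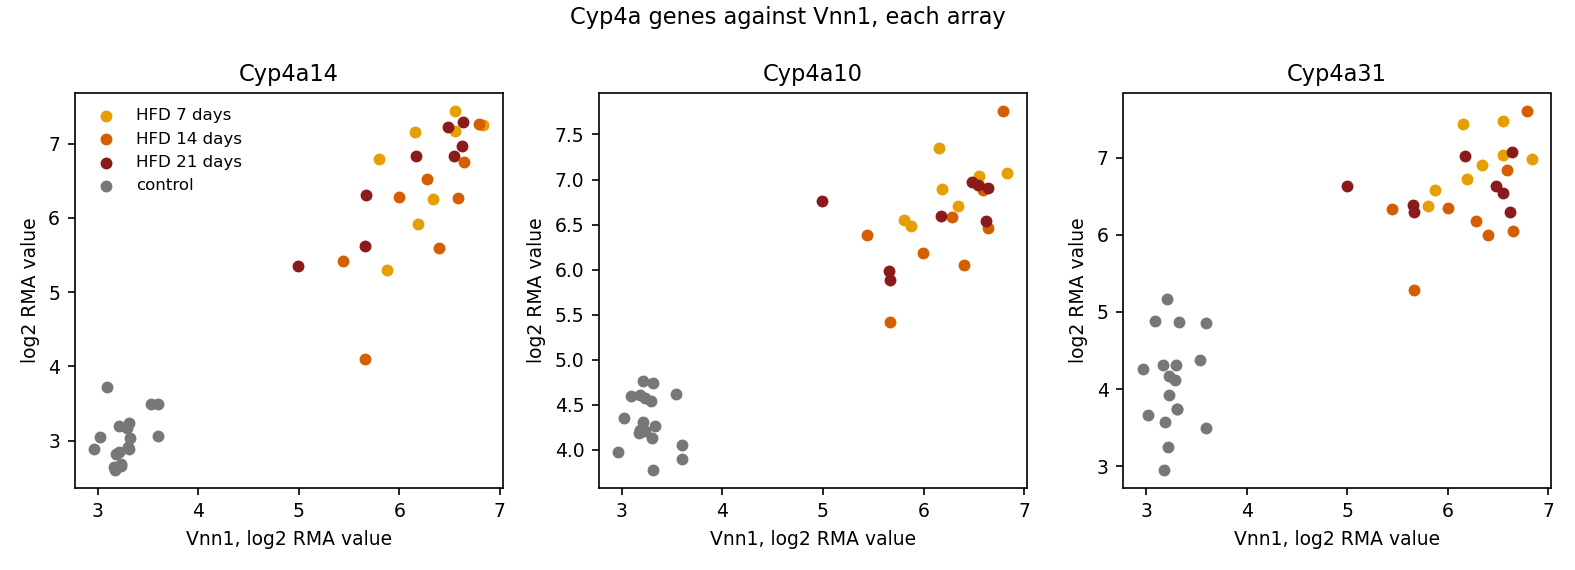
Log2 RMA value of Vnn1 (horizontal axis) against that of Cyp4a14, Cyp4a10 and Cyp4a31 (vertical axes), one point per array, coloured by group. Along the horizontal axis the HFD arrays lie to the right and the 18 controls to the left, with no array in between. The vertical gap is narrower. The 14-day array 4 stands at 4.10 for Cyp4a14 and 5.28 for Cyp4a31, against highest controls of 3.73 and 5.17.

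After Vnn1, and with the 3 Cyp4a genes themselves left out, the next most similar genes over all arrays were Abcd2, Ugt3a1, Aldh3a2 and Plin2 for Cyp4a14, with r from 0.86 to 0.90. For Cyp4a10 they were Aldh3a2, Abcd2, Apoa4 and Vnn3, with r from 0.87 to 0.89. For Cyp4a31 they were Ugt3a1, Abcd2, Aldh3a2 and Serpina7, with r from 0.83 to 0.87. Abcd2 is a peroxisomal transporter of very-long-chain acyl-CoA, Plin2 a coat protein of lipid droplets and Apoa4 an apolipoprotein. By limma, Abcd2 rose by 1.89, 1.84 and 1.63 on the log2 scale at 7, 14 and 21 days, with adjusted p of 1.06e-08, 4.32e-08 and 8.95e-07. Apoa4 rose by 1.84, 1.49 and 1.32, with adjusted p of 1.42e-13, 1.67e-10 and 4.44e-09.

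With group means removed, so that diet no longer enters, the likeness was weaker and the neighbours outside the 3 genes changed. Vnn1 still led for Cyp4a14, with r = 0.73 over 42 arrays, followed by Pde3a, Aqp4, Ppargc1a and Slc16a7 at 0.61 to 0.65. For Cyp4a10 the 5 highest outside the 3 genes, between 0.55 and 0.57, were those with Pecam1, Gnl3l, Gbp2b, Slc16a7 and Cyp2c29. For Cyp4a31 they lay between 0.54 and 0.59, with Zfp35, Casp1, Fat3, Adamts3 and Bmerb1. These genes were picked as the highest among 17989 genes and no p was computed, so the r values are descriptions. Pde3a averaged 2.80 in controls and 2.77 at 7 days, and Casp1 2.60 and 2.63, below the background level of 2.86. Among themselves the 3 genes had r of 0.63 for Cyp4a14 with Cyp4a10, 0.58 for Cyp4a10 with Cyp4a31 and 0.50 for Cyp4a14 with Cyp4a31 after group means were removed.

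The rise did not extend over the measured genes of the cluster. In RefSeq order the stretch from Cyp4x1 to Cyp4b1 holds 10 genes, of which Cyp4a29, Cyp4a30b and Cyp4a32 had no single-symbol probe set and were not analysed here. Cyp4a12a and Cyp4a12b lie on the side of Cyp4a14. Cyp4a12a encodes the enzyme known in male mice for making the arachidonic acid product 20-HETE. Its level averaged 10.51, 10.34 and 10.09 at 7, 14 and 21 days, against 10.55 in controls. Its log2 change was -0.03, -0.21 and -0.46 and was not called by limma (adjusted p = 0.955, 0.932 and 0.0817). Cyp4a12b changed by 0.00, -0.20 and -0.50 (adjusted p = 0.998, 0.962 and 0.131).

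Cyp4x1, at the near end of the stretch, changed by -0.09, -0.00 and 0.02 on the log2 scale, and Cyp4b1, at the far end, by 0.16, 0.20 and 0.00. By limma neither was called. Of 6 further genes outside it (Stil, Tal1, Pdzk1ip1, Efcab14, Tex38 and Atpaf1), Pdzk1ip1 passed at 7 days (0.48 ± 0.12 SE, adjusted p = 0.0143), and 0 passed at 14 or 21 days. That call was lost without 7-day array 5 (adjusted p = 0.0573), without 7-day array 8 (0.0522) and in 3 other settings.

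**Figure D3:**
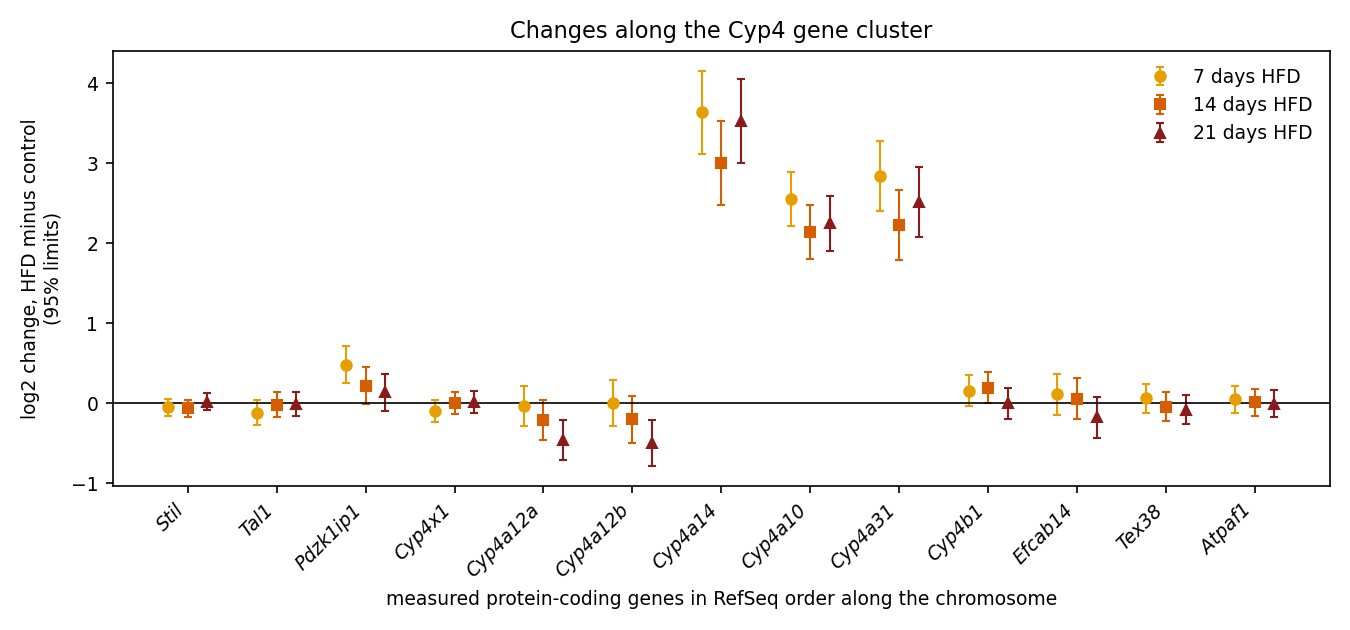
Log2 change at 7, 14 and 21 days of HFD against controls (vertical axis) for the measured genes in and beside the Cyp4a cluster, in RefSeq order along chromosome 4 (horizontal axis, order and not distance). Points are limma estimates and bars their 95% limits. Cyp4a14, Cyp4a10 and Cyp4a31 stand at 2.14 and above, while Cyp4a12a and Cyp4a12b beside them lie between -0.50 and 0.00.

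Across the other measured genes of the Cyp4 family, which oxidises fatty acids and eicosanoids, no change passed. Of 12 such genes, which include Cyp4a12a, Cyp4a12b, Cyp4x1 and Cyp4b1 above, 0 passed in either direction at 7, 14 and 21 days by limma. Before adjustment the p lay under 0.05 for 2, 1 and 2 of them, those at 21 days being Cyp4a12a and Cyp4a12b. The median log2 change of the 12 genes was -0.04, -0.02 and -0.02. Cyp4f14, which in mice hydroxylates leukotriene B4, changed by -0.29, -0.23 and -0.25. The electron donors of microsomal P450 enzymes gave no call either, with 0 of the 3 measured (Cyb5a, Cyb5b and Cyb5r3) passing at any time, and 0, 0 and 1 at an unadjusted p under 0.05. Por, the main donor, was not analysed here.

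The next steps of omega-oxidation were represented by 4 dehydrogenase genes, and 1 of them rose. Aldh3a2, fatty aldehyde dehydrogenase, rose by 1.26, 1.20 and 1.18 on the log2 scale at 7, 14 and 21 days, or 2.40-, 2.30- and 2.27-fold (limma, adjusted p = 9.69e-10, 6.12e-09 and 7.51e-09). Its mean was 9.31, 9.25 and 9.23 in the HFD groups, against 8.05 in controls, and all 8 arrays of each HFD group exceeded all controls. The alcohol dehydrogenase genes Adh1 and Adh5 and the aldehyde dehydrogenase gene Aldh1a1 were not called, with changes between -0.10 and 0.16.

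Genes for the peroxisomal breakdown of dicarboxylic acids rose in part. Of 11 measured, 6 passed as higher and 0 as lower at each of the 3 times, and their median log2 change was 0.50, 0.44 and 0.41. Among all genes 1.16%, 0.506% and 0.445% passed as higher at these times, with a median change of -0.01, -0.00 and 0.01. Crat, carnitine acetyltransferase, rose 2.28-, 1.99- and 1.84-fold (limma, adjusted p = 3.12e-07, 2.51e-05 and 0.00026). Pex11a, a factor of peroxisome division, rose by 0.86, 0.62 and 0.55 (adjusted p = 7.37e-10, 2.75e-06 and 4.97e-05). Abcd3, the transporter that carries dicarboxylic acyl-CoA into peroxisomes, rose by 0.50, 0.44 and 0.38 (adjusted p = 0.000353, 0.00441 and 0.0253). Its 21-day call was lost in 5 settings and without 21-day array 1, 5, 7 or 8 (adjusted p up to 0.130), and its 14-day call in 2 settings.

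Acot4, a thioesterase that acts on succinyl-CoA and related dicarboxylic acyl-CoA, rose by 1.04, 0.67 and 0.72 (limma, adjusted p = 6.71e-07, 0.00341 and 0.00115). Its 14-day call was lost in 3 settings (adjusted p up to 0.293) and its 21-day call with controls 10 to 18 alone (0.0977). Acaa1b, a peroxisomal thiolase, rose by 0.86, 0.66 and 0.71 (adjusted p = 9.31e-06, 0.00202 and 0.000566), and lost the 14-day call with HFD arrays 1 to 4 alone (0.431). Ehhadh, the bifunctional enzyme of the pathway, rose by 0.84 at 7 days and 0.65 at 14 days (adjusted p = 1.85e-05 and 0.00285), and its change at 21 days was 0.47 (adjusted p = 0.0738). With HFD arrays 1 to 4 or 5 to 8 alone its 14-day call was lost (adjusted p = 0.272 and 0.0903). Acot8, a peroxisomal thioesterase, passed at 21 days alone (0.41, adjusted p = 0.0146), a call lost in 4 settings and without 21-day array 5 (0.0654). With HFD arrays numbered 1 to 4 alone, 2 of 11 genes passed at 14 days. Hsd17b4, Acaa1a, Scp2 and Crot did not pass at any time, with changes between -0.10 and 0.34.

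Ppara, the gene of the receptor itself, averaged 8.10 at 7 days and 7.79 at 21 days, against 7.44 in controls. It rose by 0.65 at 7 days and 0.55 at 14 days (limma, adjusted p = 0.00265 and 0.0360), and the change at 21 days was 0.34 (adjusted p = 0.530). The 7-day call was lost with HFD arrays 5 to 8 alone (adjusted p = 0.246) and with controls 10 to 18 alone (0.0819). The 14-day call was lost in 5 settings and without any of 11 single arrays: controls 1, 2, 3, 8, 10 and 14 and 14-day arrays 1, 2, 5, 7 and 8 (adjusted p up to 0.143).

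Of 13 measured genes for PPAR-alpha and its partners, 2, 1 and 0 passed as higher at 7, 14 and 21 days and 0 as lower. The share of all genes that passed as higher was 1.16%, 0.506% and 0.445%. Besides Ppara, the call at 7 days was Fabp1, the liver fatty acid-binding protein, which rose by 0.47 (limma, adjusted p = 0.00363). That call was lost with HFD arrays 1 to 4 alone (adjusted p = 0.111) and with controls 1 to 9 alone (0.0689). The partner receptor Rxra changed by 0.07, 0.25 and 0.13 and was not called, and the coactivator gene Ppargc1a by 0.13, 0.17 and -0.01.

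**Figure D4:**
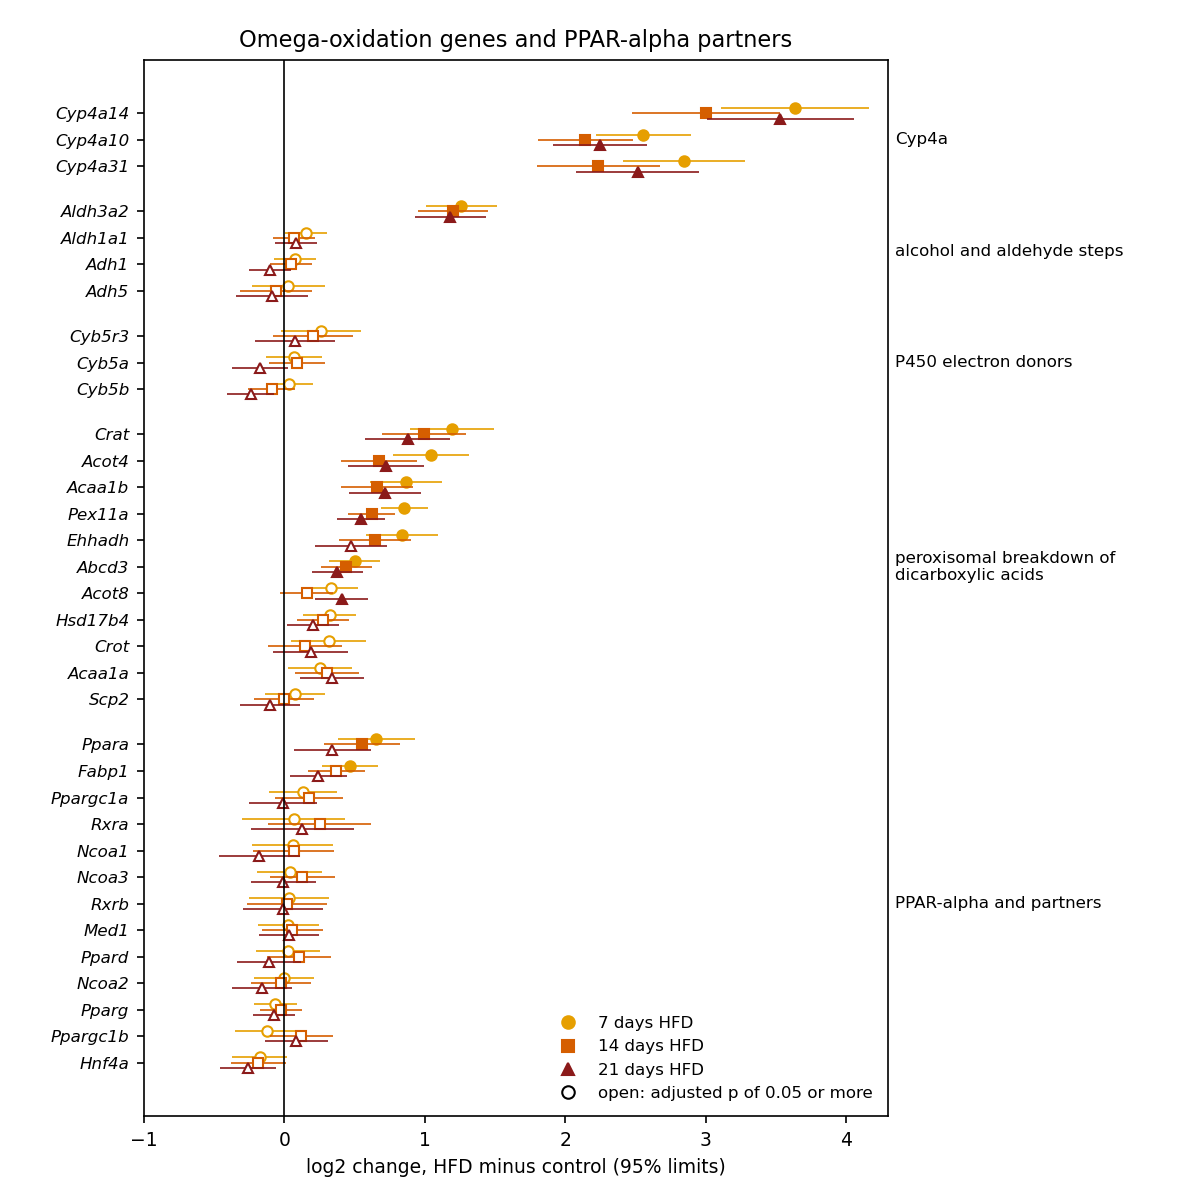
Log2 change at 7, 14 and 21 days of HFD against controls with 95% limits from limma, for the 3 Cyp4a genes and the measured genes of the alcohol and aldehyde steps, the P450 electron donors, peroxisomal breakdown and PPAR-alpha with its partners (vertical axis). Open symbols mark an adjusted p of 0.05 or more. The 3 Cyp4a genes lie above 2 at all times and Aldh3a2 between 1.18 and 1.26, with 11 of the 13 genes for PPAR-alpha and its partners, all but Ppara and Fabp1, between -0.26 and 0.25.

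Of 29 other measured PPAR-alpha target genes, 21, 20 and 17 passed as higher at 7, 14 and 21 days and 0 as lower. Some of them, such as Aldh3a2, Pex11a and Acot4, are also counted above. Their median log2 change was 0.68, 0.62 and 0.49, against a median of -0.01, -0.00 and 0.01 over all genes and changes between 2.14 and 3.64 for the 3 Cyp4a genes. With HFD arrays 5 to 8 alone the count at 14 days was 9, and with controls 10 to 18 alone the count at 21 days was 9. In the main fit 1.16%, 0.506% and 0.445% of all genes passed as higher at 7, 14 and 21 days.

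Among these targets Cd36, a fatty acid uptake protein, rose by 1.89, 1.25 and 1.76 on the log2 scale (limma, adjusted p = 3.41e-05, 0.0265 and 0.00026). Its 14-day call was lost in 3 settings and without 14-day array 3, 5, 6 or 7 (adjusted p up to 0.145). Fgf21, a hormone that the liver releases, rose by 1.12, 0.83 and 1.03 (adjusted p = 4.58e-06, 0.00194 and 5.74e-05), and lost the 14-day call in 2 settings (up to 0.0967). Plin2 rose by 1.06, 0.72 and 0.67 (adjusted p = 6.36e-11, 2.07e-06 and 1.01e-05).

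Mgll, a monoglyceride lipase, rose by 1.05, 0.93 and 0.80 on the log2 scale (limma, adjusted p = 3.89e-08, 1.44e-06 and 3.41e-05). Pdk4, a kinase that holds back glucose oxidation, changed by 0.54, 0.28 and 0.23 and was not called.

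The other P450 branch of arachidonic acid, that of the epoxygenases and the epoxide hydrolase that acts on their products, showed few calls. Of 12 measured genes, 0, 1 and 0 passed as higher and 1, 1 and 1 as lower. The gene that passed as lower was Cyp2c70, a list member that in mice makes muricholic bile acids, so no epoxygenase passed as lower. Cyp2c70 fell by 0.56, 0.59 and 0.69 on the log2 scale (limma, adjusted p = 0.0011, 0.0009 and 7.61e-05). With HFD arrays 5 to 8 alone its 7-day and 21-day calls were lost (adjusted p = 0.0595 and 0.111). Ephx2, soluble epoxide hydrolase, passed at 14 days with 0.42 (adjusted p = 0.0450). That call was lost in 7 settings and without any of 18 single arrays, namely controls 1, 2, 3, 6, 8, 10, 12, 13, 14, 15 and 17 and every 14-day array but number 6 (adjusted p up to 0.156), and its change was 0.39 at 7 days and 0.30 at 21 days.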

How the data were processed

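Liver RNA from 42 samples was hybridised to an Affymetrix whole-transcript array. The deposited log2 values were made by the authors with RMA in Affymetrix Expression Console 1.1, per the submitters' processing notes. Array medians lay between 3.08 and 3.28, and the values were used as deposited. Signal over background and the number of arrays limit the precision. Of 32624 probe sets, 19559 had 1 gene symbol, 1469 several and 11596 none listed; Entrez identifiers matched RefSeq (GRCm38.p6) for 19475. The brightest probe set stood for a gene, which gave 17989 genes with no filter on dim ones.

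The 4 groups were fitted together, with limma 3.58.1 under R 4.3.3 (lmFit, then eBayes). A gene was called at a Benjamini-Hochberg adjusted p under 0.05 over all genes, 2-sided. Differences between Cyp4a genes within arrays were tested by 2-sided exact permutation over arrays (1562275 regroupings, numpy 2.4.6), adjusted over 9 tests. Correlations within groups used exact pairings for 8 arrays and 100000 permutations for 18, with ranks from scipy 1.17.1. Promoters came from RefSeq (GRCm38.p6). The scripts were tested on simulated data.

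The named genes were the 3 Cyp4a genes, the measured genes of their cluster with 3 on either side, the 5 other genes most similar to each over all arrays and after group means were removed, and from each gene list, written from textbook knowledge, up to 4 called genes with the largest change at 7 days. Ppara, Cyp4a12a, Cyp4a12b, Cyp4f14, Por and Aldh3a2 were named whatever their result. Other list members and markers were named after their values were seen. Members and lists were chosen with earlier results of these data known. Alternatives changed the scaling, the probe set rule, the dim-gene filter, the spread model, array weights, the arrays fitted, covariates and a replicate block.

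No 2 arrays were copies, with a smallest SD of their difference of 0.255.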

Additional observations from a re-analysis of the deposited data

How the results depend on the processing

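The 9 changes of Cyp4a10, Cyp4a14 and Cyp4a31 against controls kept their direction and call in 14 settings and 26 fits that left out 1 array each. Over the settings, the change of Cyp4a14 spanned 3.14 to 4.14 at 7 days, 2.57 to 3.43 at 14 days and 3.01 to 4.06 at 21 days, lowest with HFD arrays 1 to 4 alone and highest with arrays 5 to 8 alone. The highest adjusted p of the 9 changes was 8.96e-05, for Cyp4a31 at 14 days with HFD arrays 1 to 4 alone. Since each of the 3 genes has 1 probe set, the probe set rule left their values as they were. Between HFD times, 0 of the 9 differences passed in any setting. Results that lost their call were the excess of Cyp4a14 over Cyp4a10 at 14 days (0.49, exact permutation, adjusted p = 0.0800) and over Cyp4a31 at 7, 14 and 21 days (0.32, 0.36 and 0.52), all with HFD arrays 1 to 4 alone. This setting has fewer arrays, and its lower Cyp4a14 values are given in the report; the cause was not tested. The deviations of same-numbered HFD arrays from their group means correlated above 0.1 in 17 of 24 pairs, with a median of 0.20, against 53 of 168 pairs with different numbers, with a median of -0.03. Pairing was accepted only where every same-number correlation was above 0.1, so the numbers were not taken to pair samples. This rule is strict, and same-numbered arrays were still more alike in the median, for a reason that was not tested. In a fit with the number as a block, controls whose number no HFD array carries add nothing to the comparison. With the replicate block, Cyp4a14 changed by 3.64, 3.01 and 3.54, Cyp4a10 by 2.61, 2.20 and 2.31 and Cyp4a31 by 2.53, 1.92 and 2.20 at 7, 14 and 21 days, all called, and 227, 77 and 93 genes were called in all. Without the block 251, 120 and 126 genes were called. At 7 days the count was 144 with HFD arrays 5 to 8 alone and 605 with array weights. At 14 days it was 69 and 58 with HFD arrays 1 to 4 and 5 to 8 alone, 61 with controls 10 to 18 alone and 193 with array weights. At 21 days it was 903 and 349 with HFD arrays 1 to 4 and 5 to 8 alone and 71 with controls 10 to 18 alone. Ppargc1a, not called at 21 days (-0.01), passed as higher with HFD arrays 5 to 8 alone (0.41), and the cause was not tested. Among the other named genes, calls lost were those given elsewhere in the text and those of Ugt3a1 and Serpina7 at 14 days, in 1 setting each. Calls were also gained: 61 refitted values of these genes passed where the main fit did not, against 128 that lost a call. A missing call among them was therefore not always stable.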

Other observations

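Among markers of liver zones, which the Cyp4a comparisons do not use, a few genes moved with HFD. Of 7 measured periportal hepatocyte markers, 1 passed as higher and 2 as lower at 7 days. Etnppl, an enzyme that degrades phosphoethanolamine, fell by 1.13, 1.27 and 1.52 on the log2 scale at 7, 14 and 21 days (limma, adjusted p = 1.98e-06, 4.06e-07 and 3.91e-09). Its mean was 7.96, 7.82 and 7.57 in the HFD groups, against 9.09 in controls. Hal, histidine ammonia-lyase, fell by 0.64 at 7 days (adjusted p = 0.000226), a call lost with the replicate block (0.0705). Hsd17b13, a lipid droplet protein of hepatocytes, rose by 0.43 at 7 days (adjusted p = 0.0127), a call lost without 7-day array 5 (0.0689) and in 3 settings.

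Of 10 pericentral hepatocyte markers, 0, 1 and 1 passed as lower at 7, 14 and 21 days and 0 as higher. The gene was Lhpp, with -0.39 at 14 days and -0.36 at 21 days (limma, adjusted p = 0.0124 and 0.0312). These calls were lost in 5 and 7 settings, and without 14-day array 2 or 3 (up to 0.0582) and 21-day array 2, 3, 5 or 6 (up to 0.146). Cyp2e1, a P450 enzyme of the pericentral zone that also hydroxylates fatty acids, changed by 0.03, 0.13 and 0.04 and was not called. Of 6 measured adipocyte markers 0 passed by limma at 7, 14 and 21 days. Before adjustment, 0, 1 and 1 had p under 0.05.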
